A study of Arabidopsis thaliana with 24 samples.

Results

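The gating contrast asks whether the response of Arabidopsis leaves to salicylic acid (SA) depended on the time of day at which SA was given. It is the SA effect 3 h after treatment at ZT24 minus the SA effect 3 h after treatment at ZT36, where an SA effect is the mean of the SA arrays minus the mean of the water arrays. The contrast uses 12 of the 24 arrays of the series, 3 in each of 4 groups, and covers 22746 of the 22810 probe sets, leaving out the array's own controls. All plants were wild type, soil grown and 23 days old, and had been raised with days of 12 h before 24 h of constant light. The 4 groups were leaves treated with 1 mM SA at ZT24, water at ZT24, 1 mM SA at ZT36 and water at ZT36, each taken 3 h later, and constant light continued after treatment. ZT, zeitgeber time, counts hours from a dawn, so that under days of this length ZT24 falls at subjective dawn and ZT36 at subjective dusk. The other 12 arrays carry the same labels at 0 h. The replicates are biological per the labels, which do not say how many plants each pooled.

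SA is the hormone of defence against pathogens that feed on living tissue. It acts through the NPR receptors and TGA transcription factors on genes for defence proteins, redox proteins and enzymes that modify SA itself. The circadian clock keeps a rhythm of about a day in constant light, with genes that peak near dawn repressing genes that peak near dusk and the reverse, and it sets the time of day at which many hormone responses are strongest. That dependence on time is called gating.

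Some arrays went against what their labels lead one to look for, and the results are given with this in view. The water 3 h arrays lay close to the water 0 h arrays, with 0 of 22746 probe sets called at ZT24 (limma with Benjamini-Hochberg adjustment, adjusted p of 0.05, which is a call throughout; 728 had an unadjusted p under 0.05) and 2 at ZT36 (0.00879%; 3049 unadjusted). With array weights these counts came to 7 at ZT24 and 1355 at ZT36, so the closeness at ZT36 depended on the setting. The ZT36 count came to 705 without water 0 h replicate 1 and to 138 without water 3 h replicate 3. It was 0 without water 3 h replicate 1. The SA 0 h arrays, taken at the time of treatment, differed from the water 0 h arrays at 3688 probe sets at ZT24 (16.2%) and at 6603 at ZT36 (29%). UGT76B1, the gene most strongly induced by SA among those described below, lay between -0.19 and 0.52 in the SA 0 h arrays, against 7.92 to 8.64 in the SA 3 h arrays. Labels were used as deposited, and whether the water 3 h and SA 0 h labels belong to each other's arrays was not tested. The gating differences below use the water 3 h arrays as control, as the contrast is defined. For the main genes and lists the value with SA 0 h arrays in their place stands beside it. By their labels the SA 0 h and water 0 h arrays were taken 3 h before the SA 3 h arrays. A version with 0 h arrays as control therefore also holds any change over those 3 h that differed between ZT24 and ZT36. It is not the same quantity as the contrast with water 3 h. The 2 versions share the SA 3 h arrays and came from one fit, so a gene has the same SE in both. Values of each probe set had been centred on its median over the 24 arrays, so they are log2 levels relative to that median, levels cannot be compared between genes, and the labelled tissue could not be checked by the level of leaf markers. In whole leaves, fewer cells of a type and less RNA per cell cannot be told apart.

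With water 3 h as control, 4704 probe sets were called (20.7% of those tested). The SA effect was more positive at ZT24 than at ZT36 for 2363 of them (10.4%), here called gating higher, and more negative at ZT24 for 2341 (10.3%), called gating lower. The median gating difference over all probe sets was -0.01 on the log2 scale and its SD over probe sets was 0.547. The SA effect itself was called at 8677 probe sets at ZT24 (38.1%) and 9133 at ZT36 (40.2%). At ZT24 it was called higher at 17.7% of probe sets and lower at 20.5%, and at ZT36 higher at 18.5% and lower at 21.6%. The effects at the 2 times had r = 0.69 across probe sets, a description, since probe sets do not replicate one another. The gating calls were sorted by which SA effects were called, where an effect that was not called is not shown to be absent. Of the 4704, 2967 (63.1%) had an SA effect called at 1 time only, 1193 (25.4%) had effects called in the same direction at both times, 472 (10%) had effects called in opposite directions, and 72 (1.53%) had no effect called at either. The most frequent kinds were a fall called at ZT36 and no call at ZT24 (987 probe sets, gating higher) and a fall called at ZT24 with no call at ZT36 (803, gating lower).

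**Figure D1:**
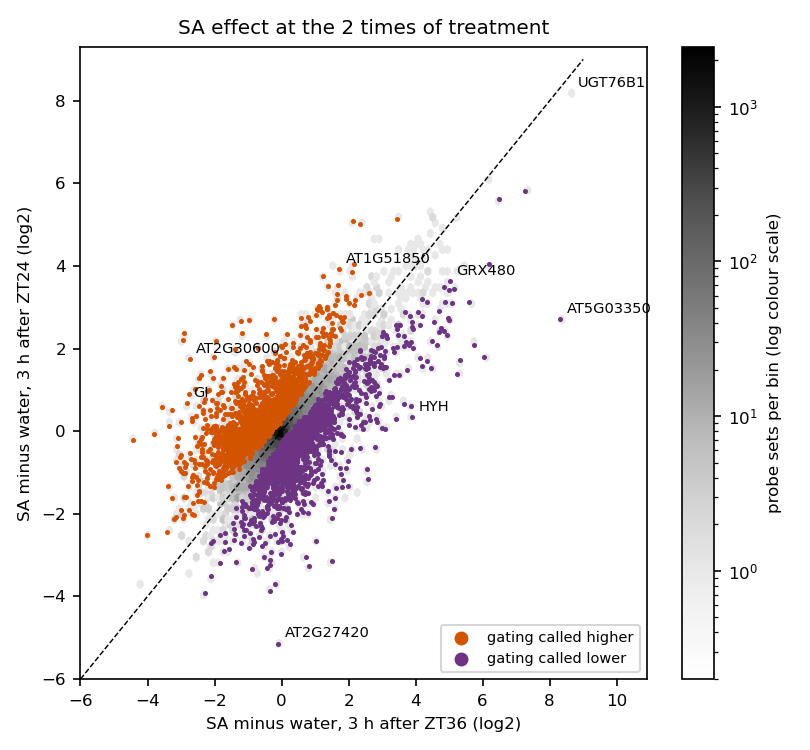
SA minus water 3 h after treatment at ZT24 (vertical axis, log2) against the same at ZT36 (horizontal axis, log2) for 22746 probe sets in hexagonal bins shaded on a log scale. The 2363 probe sets with gating called higher are orange and the 2341 with gating called lower purple, and the dashed line marks equal effects; UGT76B1 lies at the top right near the line, and GI, HYH and AT2G27420 lie far from it.

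The same contrast can be read as the ZT24 minus ZT36 difference in SA leaves less that difference in water leaves. The time difference was called at 6358 probe sets in SA 3 h leaves (28%) and at 8658 in water 3 h leaves (38.1%). After quantile normalization of the deposited values these counts were 3443 in SA leaves and 9294 in water leaves. It was called higher at 11.6% and lower at 16.3% of probe sets in SA leaves, and higher at 16.8% and lower at 21.2% in water leaves. Its SD over probe sets was 0.48 and 0.659 on the log2 scale in the same order. Among the 4704 gating calls, 1285 gating-higher probe sets had a time difference called lower in water 3 h leaves and none called in SA 3 h leaves, and 973 gating-lower probe sets had one called higher in water and none in SA. The converse, a time difference called in SA leaves and not in water leaves, was found at 395 gating-higher and 662 gating-lower probe sets. A further 226 gating-higher and 197 gating-lower probe sets had time differences of opposite sign in SA and water leaves.

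The water 0 h arrays are not in the contrast, though they share its fit, and give a second measure of the time difference. Since water 3 h arrays lay close to water 0 h arrays, this measure is near the time difference that the contrast subtracts. A negative relation to the gating difference is therefore largely built in, and the overlaps below describe it without testing it. In water 0 h leaves 9311 probe sets were called between ZT24 and ZT36 (40.9%), 4253 higher (18.7%) and 5058 lower (22.2%) at ZT24. Of the 2363 gating-higher probe sets, 1929 were lower at ZT24 in water 0 h leaves, which is 81.6% of that list and 38.1% of the 5058, while 62 (2.62%) were higher. Of the 2341 gating-lower probe sets, 1614 were higher at ZT24 in water 0 h leaves, which is 68.9% of that list and 37.9% of the 4253, while 93 (3.97%) were lower. Across all probe sets r between the gating difference and the time difference in water 0 h leaves was -0.71, a description with no test. With SA 0 h as control, a version that subtracts no water arrays, r was 0.02.

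**Figure D2:**
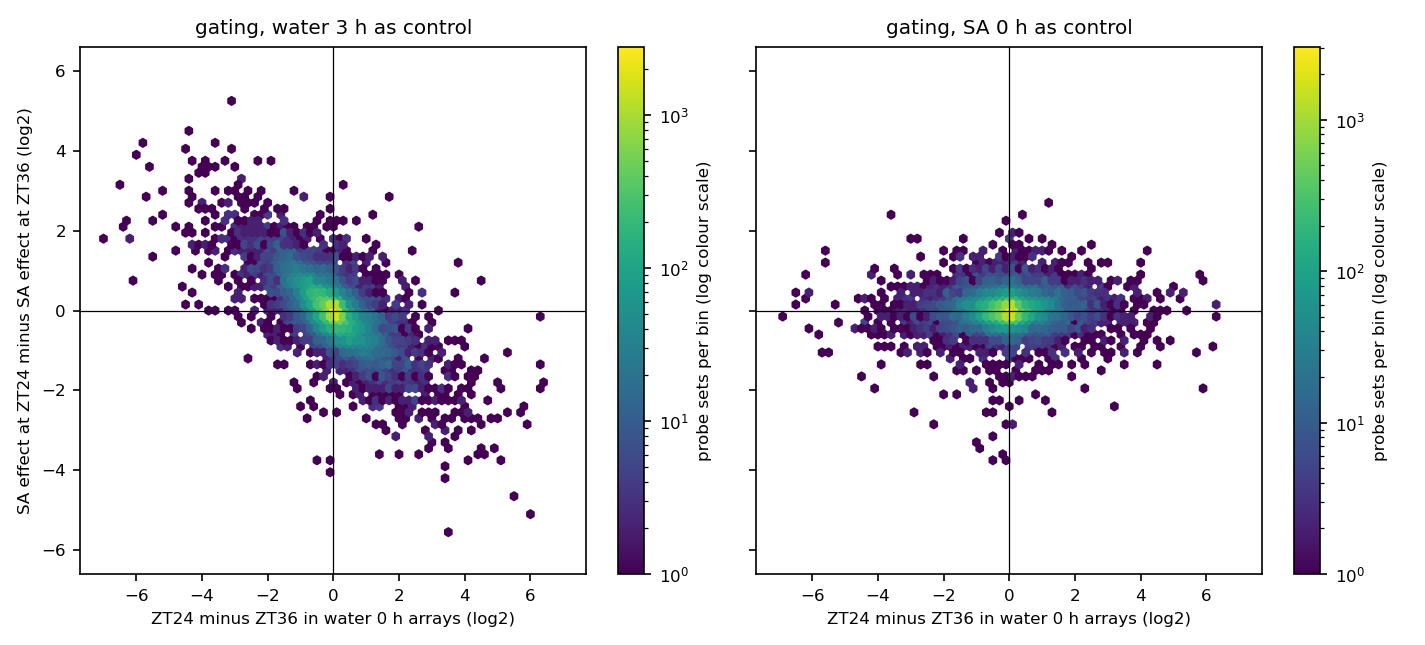
Gating difference (vertical axis, log2) against the ZT24 minus ZT36 difference in the water 0 h arrays, which enter neither version of the contrast (horizontal axis, log2), for 22746 probe sets in hexagonal bins coloured on a log scale. With water 3 h as control (left) the cloud slopes downward (r = -0.71), and with SA 0 h as control (right) it lies flat (r = 0.02).

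The number of probe sets called differed with the control arrays. With SA 0 h as control, 136 probe sets were called (0.598%), 92 gating higher (0.404%) and 44 gating lower (0.193%), and 2253 had an unadjusted p under 0.05. That count was 52 without SA ZT36 3 h replicate 2, 199 without SA ZT24 3 h replicate 2, and 1017 after quantile normalization of the deposited values. With water 0 h arrays as control, 6586 were called (29%). The difference between the water 3 h and SA 0 h versions was itself called at 3843 probe sets (16.9%). When each group's own 0 h arrays were subtracted, which gives a larger SE because all 8 groups enter, 29 probe sets were called (0.127%), 16 gating higher (0.0703%) and 13 gating lower (0.0572%).

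The clock and light signalling genes that could be measured were few, and their gating differences ranged from large to small. GI encodes GIGANTEA, a clock protein of the evening that also times flowering. It had values of -0.47, -0.45 and -0.68 in SA leaves at ZT24, against -0.88, -1.31 and -1.45 in water leaves at ZT24, and of 0.33, -0.02 and 0.11 in SA leaves at ZT36, against 2.83, 3.17 and 2.90 in water leaves at ZT36. The water leaves at ZT36 stood far above all others, and the SA leaves of both times lay within about 1 log2 unit of each other. The SA effect was 0.68 at ZT24 and -2.83 at ZT36, a gating difference of 3.51 ± 0.29 (SE, n = 3 arrays per group; limma adjusted p = 5e-08). In SA 0 h leaves GI was at -0.23, -0.06 and 0.20 at ZT24 and at 0.02, 0.96 and 0.13 at ZT36, so that with those arrays as control the difference was -0.27 (adjusted p = 0.85).

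The other 2 measured genes of the evening list moved the same way. COR27, a cold-regulated gene whose protein represses evening clock genes, had -2.44, -2.31 and -2.26 in SA leaves at ZT24, against -2.1, -2.26 and -1.08 in water leaves, and 1.43, 1.08 and 1.19 in SA leaves at ZT36, against 3.71, 4.07 and 4.08 in water leaves. Its SA and water values nearly met at ZT24 and stood well apart at ZT36, and unlike GI it kept a time difference of -3.57 in SA leaves, against -5.77 in water leaves. Its gating difference was 2.2 ± 0.31 (adjusted p = 4.1e-05), and 0.88 (adjusted p = 0.28) with SA 0 h as control. AT4G33980 had a gating difference of 1.86 ± 0.16 (adjusted p = 1.3e-07) and of 0.29 with SA 0 h as control (adjusted p = 0.62). Thus 3 of 3 measured evening genes were called gating higher, beside 9.39% of all 13355 named genes (18.8% in either direction, 9.4% lower), with a median of 2.2, and 0 of 3 were called with SA 0 h as control, with a median of 0.29, beside 0.539% of named genes (0.352% higher, 0.187% lower). The list named 14 genes, most of which had no named probe set. Like the other lists, it was written with earlier results of these data known. GI, COR27 and AT4G33980 had also been set to be named whether called or not. The count therefore describes these genes and is no test of evening genes. Of 11 genes of the morning list AT5G52660 alone was measured. It was gating lower at -0.38 ± 0.13 (adjusted p = 0.039), with 0.20 when SA 0 h was the control (adjusted p = 0.69), and the call was lost without any 1 of 8 of the 12 arrays, which are all but SA ZT24 replicate 3, water ZT24 replicate 1 and water ZT36 replicates 1 and 3 (adjusted p 0.055 to 0.12), in a fit of the 12 arrays alone (0.078) and with water 0 h as control (0.20).

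HYH, a bZIP factor of light signalling related to HY5 and the only measured gene of the 15 in the light list, moved the opposite way. It had 1.08, 0.86 and 0.74 in SA leaves at ZT24, against 0.45, 0.56 and 0.64 in water leaves, and 0.04, 0.27 and 0.18 in SA leaves at ZT36, against -3.59, -3.79 and -3.82 in water leaves. Only the water leaves at ZT36 were low, and the SA effect there was 3.90, against 0.34 at ZT24 (adjusted p = 0.10). The gating difference was -3.56 ± 0.23 (adjusted p = 3.2e-09), and -0.30 (adjusted p = 0.75) with SA 0 h as control. CCL, named for its likeness to a cold and circadian regulated gene, changed in opposite directions, with an SA effect of 1.56 at ZT24 and -1.42 at ZT36 (gating 2.98 ± 0.24, adjusted p = 4.1e-08; 0.08 with SA 0 h as control). COR15B, a cold-induced protective protein of the chloroplast, had an SA effect of 0.26 at ZT24 (adjusted p = 0.54) and of -2.66 at ZT36 (gating 2.92 ± 0.39, adjusted p = 2.1e-05; 0.15 with SA 0 h as control).

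**Figure D3:**
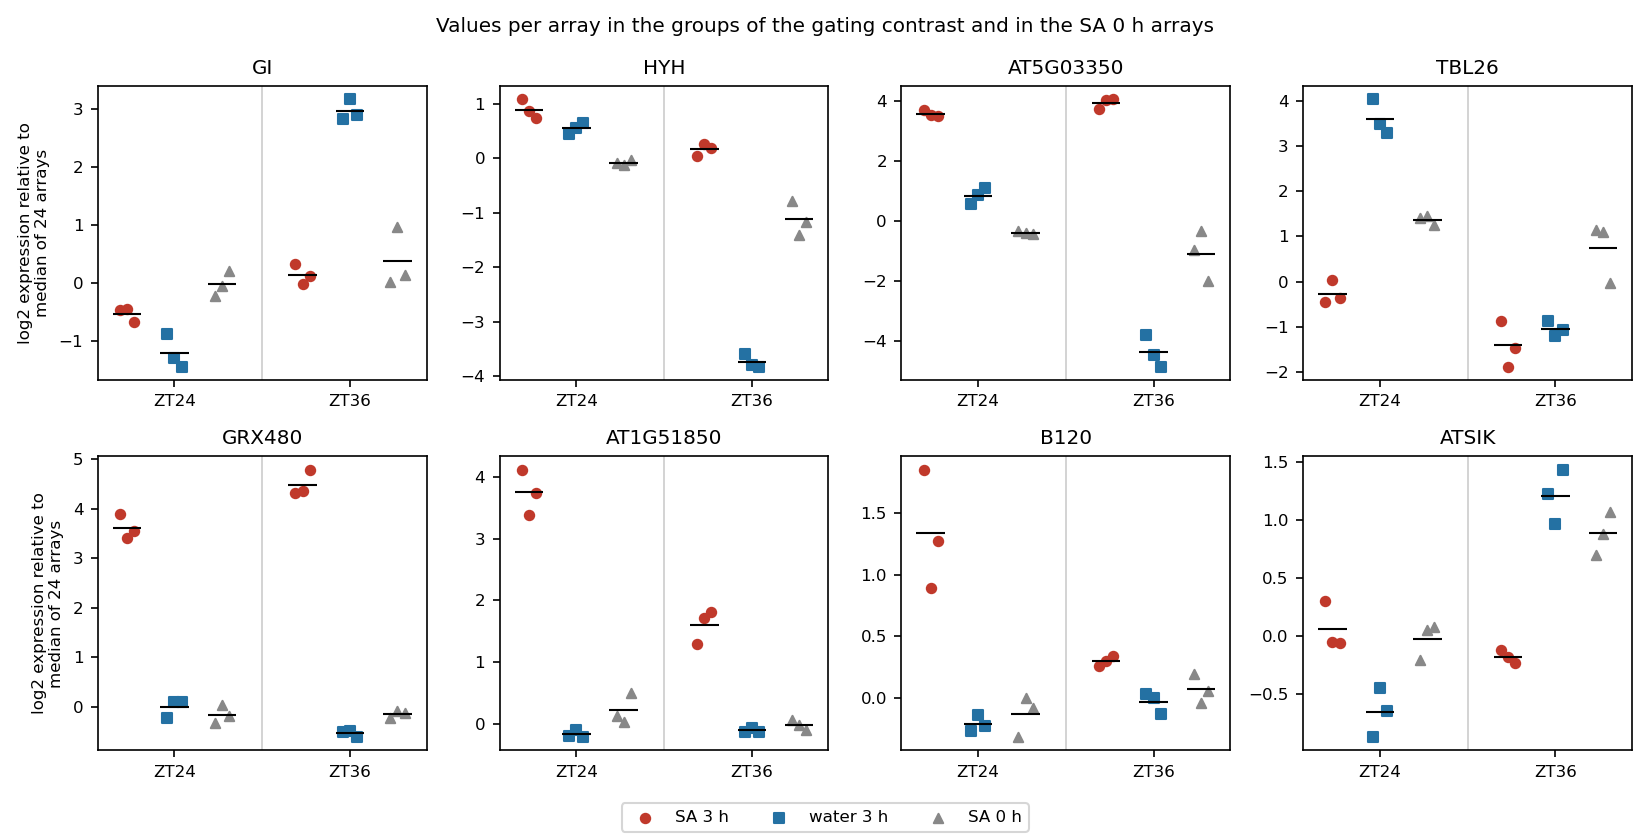
Log2 expression relative to the median of 24 arrays in each array of 8 genes, with ZT24 left and ZT36 right of the grey line; within each time SA 3 h arrays are red circles, water 3 h arrays blue squares and SA 0 h arrays grey triangles, and bars are group means. In GI, HYH and TBL26 a water 3 h group stands far apart at 1 time. In AT5G03350 water 3 h lies below SA 3 h at both times, and further below at ZT36. In AT1G51850 and B120 the SA 3 h groups differ between the times over controls that differ little.

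Genes of leucine breakdown and of the response to low sugar were called together. MCCA and MCCB, the subunits of methylcrotonyl-CoA carboxylase, and IVD, isovaleryl-CoA dehydrogenase, break down leucine in mitochondria, and EXLA1 encodes an expansin-like protein. MCCA had -0.89, -1.02 and -0.58 in SA leaves at ZT24, against -0.40, -0.62 and -0.36 in water leaves, and 0.15, -0.67 and -0.63 in SA leaves at ZT36, against 1.97, 3.14 and 3.10 in water leaves. It was high in the 3 water arrays at ZT36 alone. The gating difference was 2.75 ± 0.43 for MCCA (adjusted p = 1.0e-04), 1.13 for MCCB, 1.57 for IVD and 2.03 for EXLA1. In that list of 10 genes 4 of 4 measured were called gating higher, beside 9.39% of all named genes, with a median of 1.80. This list too was written with earlier results of these data known, and MCCA had been set to be named whether called or not. The count describes these genes and is no test of them. With SA 0 h as control 0 of 4 were called, where 0.539% of all named genes were, so that this count says little. The differences were then -0.93 for MCCA, -0.41 for MCCB, -0.38 for IVD and -0.92 for EXLA1, with a median of -0.66. AKINBETA1, a regulatory subunit of the SnRK1 kinase of energy shortage, likewise had an SA effect of 0.94 at ZT24 and -1.37 at ZT36 (gating 2.32 ± 0.35, adjusted p = 8.6e-05; -0.35 with SA 0 h as control).

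The measured autophagy genes, most of them ATG8 genes, followed the same direction. ATG8 proteins coat the membranes that enclose cargo for the vacuole. ATG8E had 0.20, 0.43 and 1.06 in SA leaves at ZT24, against -0.58, -0.09 and -0.08 in water leaves, and -0.62, -0.65 and -0.45 in SA leaves at ZT36, against 0.08, 0.46 and 0.63 in water leaves. The groups did not overlap at either time, and SA leaves were the higher at ZT24 and the lower at ZT36. The gating difference was 1.77 ± 0.33 for ATG8E (adjusted p = 0.00063), 0.97 for ATG8F and 0.95 for APG8A. With SA 0 h as control these were -0.26, -0.01 and 0.16 in the order given. Of 11 measured ATG genes 8 were called gating higher, beside 9.39% of all named genes, and 0 lower, with a median of 0.75. The count is largely one of ATG8 genes, and related genes may share signal. Of the 11, 0 were called with SA 0 h as control, where 0.539% of all named genes were, so that this count says little about the family, and the median was 0.16.

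Of 26 measured members of the SEC and VPS families of vesicle traffic, 7 were gating higher and 1 lower, beside 9.39% and 9.4% of all named genes, and 18 were not called. The median was 0.27. VPS20.1, a subunit of a complex that sorts membrane cargo for the vacuole, had an SA effect of 1.26 at ZT24 and 0.05 at ZT36 (gating 1.22 ± 0.21, adjusted p = 0.00025). KEU, a regulator of membrane fusion at cell division, had 1.18 and 0.21 at those times (gating 0.97, adjusted p = 0.00038), and VPS60.1 had 1.81 and 0.85 (gating 0.96, adjusted p = 0.00066). In these 3 genes the rise with SA was larger at ZT24. Their differences were 0.54, 0.46 and 0.31 in the order given with SA 0 h as control. There 0 of 26 members were called, beside 0.539% of all named genes (median 0.10).

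Among auxin genes IAA29, a short-lived repressor of auxin responses, was at -1.14, -1.02 and -0.75 in SA leaves at ZT24, against -0.91, -1.03 and -0.56 in water leaves, and at 0.19, -0.74 and -0.19 in SA leaves at ZT36, against 2.83, 1.26 and 2.94 in water leaves. The high values were again those of water leaves at ZT36, and the gating difference was 2.45 ± 0.49 (adjusted p = 0.0011; 0.17 with SA 0 h as control). GH3.3, an enzyme that joins auxin to amino acids, was induced by SA at both times, by 3.47 at ZT24 and 2.56 at ZT36, and its gating difference of 0.91 was not called (adjusted p = 0.27), although it was 1.43 (adjusted p = 0.029) without SA ZT36 3 h replicate 1. WES1, of the same enzyme family, had a gating difference of 0.77 (adjusted p = 0.039), a call lost without any 1 of 7 of the 12 arrays (SA ZT24 replicate 1, SA ZT36 replicates 2 and 3, water ZT24 replicates 2 and 3, water ZT36 replicates 1 and 3), with adjusted p up to 0.12. The auxin list had 2 of 3 measured genes gating higher (median 0.91), WES1 among them, beside 9.39% of all named genes. With SA 0 h as control 0 of 3 were called (median -0.08), beside 0.539% of all named genes. A list this short says little about auxin genes.

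CHIL and some UDP-glycosyltransferases were gating lower, while the counts of that enzyme family in either direction lay near those of all named genes. CHIL, a chalcone isomerase-like protein that aids flavonoid synthesis, had 0.73, 0.64 and 0.70 in SA leaves at ZT24, against 4.02, 3.36 and 3.45 in water leaves, and -1.03, -0.93 and -1.19 in SA leaves at ZT36, against -0.66, -0.65 and -0.94 in water leaves. The water leaves at ZT24 were the high group. It had a gating difference of -2.62 ± 0.26 (adjusted p = 4.8e-07), and -1.06 with SA 0 h as control (adjusted p = 0.067). UGT78D1 and UGT78D2, which attach sugars to flavonols, fell by 2.27 and fell by 1.15 with SA at ZT24, and had SA effects of 0.28 (adjusted p = 0.39) and 0.66 (adjusted p = 0.00018) at ZT36. Their gating differences were -2.55 ± 0.32 and -1.80 ± 0.18, and with SA 0 h as control 0.23 and 0.12, neither called.

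UGT74D1, which glucosylates auxins, rose with SA at ZT36. It had -0.36, -0.05 and -0.10 in SA leaves at ZT24, against 0.33, 0.21 and 0.26 in water leaves, and 0.34, 0.33 and 0.16 in SA leaves at ZT36, against -1.75, -1.88 and -1.81 in water leaves. The SA effect was -0.44 at ZT24 and 2.09 at ZT36, the groups did not overlap at either time, and the gating difference was -2.52 ± 0.17 (adjusted p = 6.7e-09). UGT74D1 was called with SA 0 h as control too, at -0.88 (adjusted p = 0.020), though not when SA ZT36 0 h replicate 2, SA ZT36 0 h replicate 3 or SA ZT36 3 h replicate 2 was left out (adjusted p 0.050 to 0.061) or with a trended and robust prior (adjusted p = 0.079). IAGLU, an indole-3-acetate glucosyltransferase, showed -2.37 ± 0.31 (adjusted p = 1.8e-05) and -0.40 with SA 0 h as control. UGT85A5 moved the other way, with 1.82 ± 0.16 (adjusted p = 1.8e-07) and SA effects of 0.05 at ZT24 and -1.77 at ZT36, but its difference was -0.11 with SA 0 h as control (adjusted p = 0.91). Of 51 measured UDP-glycosyltransferases 7 were gating higher and 6 lower, near the 9.39% and 9.4% of all named genes, with a median of -0.08. Their count of 13 came to 21 with water 0 h arrays as control and to 1, UGT74D1, with SA 0 h (median -0.07).

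Single genes of the cell wall and of detoxification had large gating differences. Most measured members of their families were not called, as was so for all named genes, of which 18.8% were called. TBL26 belongs to a family of enzymes that acetylate wall polysaccharides. It had -0.46, 0.03 and -0.37 in SA leaves at ZT24, against 4.03, 3.49 and 3.29 in water leaves, and -0.88, -1.88 and -1.46 in SA leaves at ZT36, against -0.87, -1.20 and -1.08 in water leaves. The water leaves at ZT24 stood more than 3 log2 units above SA leaves of that time, and the 2 groups of ZT36 overlapped. This gave a gating difference of -3.51 ± 0.45 (adjusted p = 1.2e-05), and 0.51 with SA 0 h as control (adjusted p = 0.81). Of 23 TBL genes 2 were gating higher and 4 lower (median -0.08), and of 29 expansins and XTH enzymes, which loosen and remodel walls, 2 were higher and 4 lower (median 0.03). In the expansin and XTH group that is about the share of all named genes (9.39% higher, 9.4% lower). Among TBL genes the lower calls were a larger share than that, and the higher calls about that share. With SA 0 h as control 0 were called in either family, beside 0.539% of all named genes. The medians there were -0.05 for TBL genes and -0.02 for expansins and XTH enzymes. EXPB3, an expansin, fell by 1.19 with SA at ZT24 and had an SA effect of 0.14 at ZT36 (gating -1.33 ± 0.21, adjusted p = 0.00013; -0.43 with SA 0 h as control). Of 14 glutathione transferases 0 were higher and 4 lower (median -0.06), beside 9.4% lower among all named genes, with GSTU20 at -1.76 and GSTU16 at -1.0. GSTU20 was at 0.04 and GSTU16 at -0.17 with SA 0 h as control. There 0 of 14 were called, beside 0.539% of all named genes (median 0.01). GR1, a glutathione reductase, was gating lower at -1.24 ± 0.15 (adjusted p = 4.8e-06; 0.06 with SA 0 h as control), while its relative GR at -0.42 was not called (adjusted p = 0.15) and was called, at -0.74 (adjusted p = 0.0015), after quantile normalization and, at -0.87 (adjusted p = 0.0018), with water 0 h arrays as control. The redox list had 1 of 3 measured genes called lower, beside 9.4% of all named genes, with a median of -0.42, and is too short to say much.

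**Figure D4:**
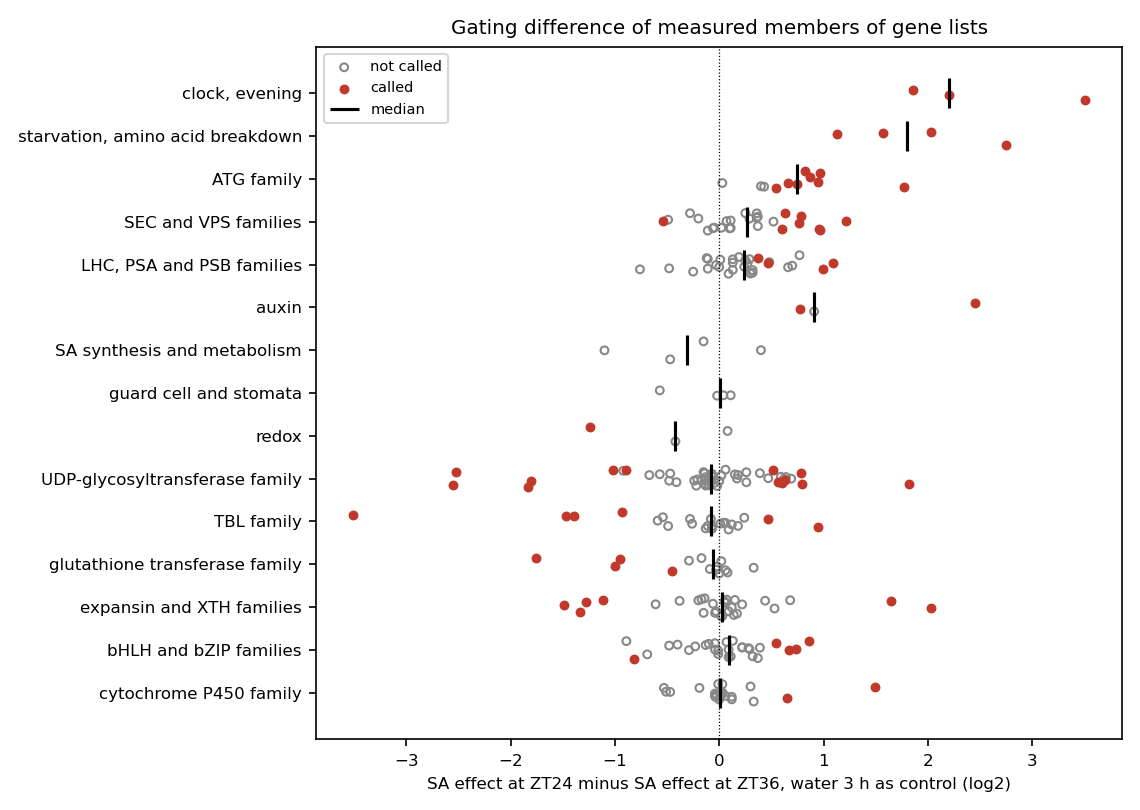
Gating difference with water 3 h as control (log2) of each measured member of 15 gene lists, with called members as red points, other members as open circles and list medians as black bars. The evening clock, starvation and ATG lists lie to the right of 0, with medians of 2.2, 1.80 and 0.75, and the UDP-glycosyltransferases spread on both sides.

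Other genes of known function had gating differences above 2 in size. THI2.2, a thionin of the antimicrobial peptide class, had an SA effect of 0.99 at ZT24 (adjusted p = 0.053) and -2.17 at ZT36 (gating 3.16 ± 0.55, adjusted p = 0.00036). Fes1B, related to a partner of HSP70 chaperones, had 0.96 and -1.81 at those times (gating 2.77 ± 0.19, adjusted p = 8.1e-09). OASA2, of the enzyme family that makes cysteine, had 0.78 and -1.59 (gating 2.36 ± 0.30). Among lower calls Cpn60beta2, a chaperonin subunit of the chloroplast, had SA effects of -1.17 at ZT24 and 1.83 at ZT36 (gating -3.01 ± 0.45). BGLU40, a beta-glucosidase, had -1.76 and 0.93 (gating -2.69 ± 0.32), and scpl46, a serine carboxypeptidase-like protein, had 0.53 and 2.68 (gating -2.16 ± 0.18). With SA 0 h as control none of these 6 was called, and their differences were 0.08, -0.27, 0.68, -0.47, -0.28 and 0.03 in the order given.

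The largest differences among named genes belonged to genes that the annotation used here names by locus only. AT5G03350 had 3.69, 3.52 and 3.51 in SA leaves at ZT24, against 0.58, 0.86 and 1.1 in water leaves, and 3.74, 4.03 and 4.05 in SA leaves at ZT36, against -3.80, -4.48 and -4.85 in water leaves. SA leaves reached nearly the same value at both times and water leaves did not, so the SA effect was 2.72 at ZT24 and 8.32 at ZT36 (gating -5.59 ± 0.53, adjusted p = 3.6e-07; -1.08 with SA 0 h as control, adjusted p = 0.53). AT5G19240 had the same form, with SA effects of 1.38 and 5.24 (gating -3.86 ± 0.38). AT3G28310 fell by 3.79 with SA at ZT36 and had an SA effect of -0.08 at ZT24 (gating 3.71 ± 0.21), and AT3G15450 fell by 2.76 at ZT36 against an effect of 0.91 at ZT24 (gating 3.66 ± 0.55). None of these 4 was called with SA 0 h as control. AT2G27420, which also belongs here, is described with the genes called under both controls. AT3G28220 had -3.99, -1.47 and -1.41 in SA leaves at ZT24, against 2.04, 0.55 and 0.33 in water leaves, and 1.82, 0.37 and -1.22 in SA leaves at ZT36, against -0.67, -1.78 and 0.92 in water leaves. The groups were apart at ZT24 and overlapped at ZT36, and replicates spread widely. Its gating difference of -4.10 ± 1.08 (adjusted p = 0.0091) stayed at a like size, -3.79, with SA 0 h as control but was not called there (adjusted p = 0.14), nor with water 0 h as control, at -2.60 (adjusted p = 0.080).

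Several SA-responsive and immune genes were induced at both times with gating differences that were not called. UGT76B1, which glucosylates SA and related immune signals, had 8.08, 8.04 and 7.92 in SA leaves at ZT24, against -0.15, -0.06 and -0.30 in water leaves, and 8.34, 8.64 and 8.39 in SA leaves at ZT36, against -0.17, -0.34 and -0.09 in water leaves. Its rise of 8.18 at ZT24 and 8.66 at ZT36 differed by -0.47 ± 0.18, which was not called (adjusted p = 0.077), and by -0.76 with SA 0 h as control (adjusted p = 0.068). A fit of the 12 arrays alone gave an adjusted p of 0.038 for the same difference, and water 0 h arrays as control gave 0.047. WRKY53, a transcription factor of senescence and defence, rose by 3.39 and 3.89 with a gating difference of -0.50 (adjusted p = 0.47), which turned to 0.25 with water 0 h arrays as control. EFR, the receptor for bacterial elongation factor Tu, rose by 1.90 and 1.74 with a difference of 0.15 ± 0.21 (adjusted p = 0.70). In the SA synthesis and metabolism list 0 of 4 measured genes was called, with a median of -0.31. With 18.8% of all named genes called, a list of this length with no call says little. They were UGT76B1, SAG101, a partner of the immune regulator EDS1 (0.40), UGT74F1, an SA glucosyltransferase (-0.15), and BSMT1, an SA methyltransferase (-1.1, adjusted p = 0.28, SE 0.65).

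GRX480, a glutaredoxin that binds TGA factors, was induced at both times and was called. It had 3.89, 3.41 and 3.55 in SA leaves at ZT24, against -0.23, 0.09 and 0.10 in water leaves, and 4.31, 4.36 and 4.78 in SA leaves at ZT36, against -0.51, -0.49 and -0.61 in water leaves. It was higher in SA leaves at ZT36 than at ZT24 without overlap, and the SA effect was 3.63 at ZT24 and 5.01 at ZT36. GRX480 had a gating difference of -1.39 ± 0.18 (adjusted p = 1.8e-05), and -0.86 (adjusted p = 0.030) with SA 0 h as control. That second call was lost without any 1 of 9 of its 12 arrays, which are all but SA ZT24 3 h replicate 1, SA ZT36 3 h replicate 1 and SA ZT24 0 h replicate 1 (adjusted p up to 0.085, differences from -0.92 to -0.71), in a fit of the 12 arrays alone (adjusted p = 0.12) and with a trended and robust prior (adjusted p = 0.26).

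BIK1, a cytoplasmic kinase downstream of immune receptors, rose with SA at ZT24. It had 1.07, 0.51 and 0.81 in SA leaves at ZT24, against -0.24, -0.23 and -0.65 in water leaves, and 0.45, 0.19 and 0.04 in SA leaves at ZT36, against 0.03, 0.07 and 0.01 in water leaves. The groups were apart at ZT24 and overlapped at ZT36 (SA effects 1.17 and 0.19, gating 0.98 ± 0.22, adjusted p = 0.0026), and the difference was 0.49 with SA 0 h as control (adjusted p = 0.44). Of 7 measured WRKY genes 1 was gating higher and 1 lower, beside 9.39% and 9.4% of all named genes, so that the count says little about the family. WRKY6 had SA effects of 2.08 and 1.16 (gating 0.92 ± 0.24, adjusted p = 0.0079; 1.03 with SA 0 h as control, adjusted p = 0.051). WRKY47 had 0.62 and 1.27 (gating -0.65, adjusted p = 0.042), a call lost without any 1 of SA ZT24 replicates 1 and 2, SA ZT36 replicates 1 and 3, water ZT24 replicate 2 and water ZT36 replicates 2 and 3 (adjusted p 0.065 to 0.13).

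The early wound and touch list had 3 measured genes. STZ, a zinc finger repressor of stress responses, had 1.93, 1.76 and 2.55 in SA leaves at ZT24, against 1.33, 0.60 and 0.66 in water leaves, and 2.30, 1.88 and 2.28 in SA leaves at ZT36, against -0.75, -0.17 and -0.41 in water leaves. SA leaves overlapped between the times and water leaves did not, and the gating difference was -1.38 ± 0.33 (adjusted p = 0.0051), but 0.19 with SA 0 h as control and 0.61 with water 0 h as control. AT3G02840 was gating higher at 1.61 ± 0.33 (adjusted p = 0.0015) and AT3G01830 was not called at 1.68 ± 0.66 (adjusted p = 0.080), although without water ZT24 3 h replicate 2 it was 2.39 (adjusted p = 0.0036) and with water 0 h as control 2.18 (adjusted p = 0.016). The unfolded protein response genes ATERDJ3B, an ER chaperone, and BZIP60 rose with SA at both times. ATERDJ3B had a gating difference of -0.94 (adjusted p = 0.028), a call lost without any 1 of SA ZT24 replicates 1 and 3, SA ZT36 replicates 2 and 3, water ZT24 replicate 2 and water ZT36 replicates 2 and 3 (adjusted p 0.051 to 0.091). BZIP60 had 0.22 (adjusted p = 0.38), and 0.44 with water 0 h as control (adjusted p = 0.037).

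Of 3 genes in the photosynthesis list 2 were called gating higher, beside 9.39% of all named genes, with a median of 0.37. LHCB4.2, an antenna protein of photosystem II, had an SA effect of 0.05 at ZT24 and -1.04 at ZT36 (gating 1.09 ± 0.17, adjusted p = 0.00015; 0.50 with SA 0 h as control). LHCB4.1 had 0.37 (adjusted p = 0.021). It was not called when water ZT24 replicate 1, water ZT36 replicate 2, SA ZT24 replicate 2 or SA ZT36 replicate 2 was left out (adjusted p 0.054 to 0.072) or after quantile normalization (0.054). RCA, Rubisco activase, was not called at -0.23 (adjusted p = 0.15), and was called at -0.32 after quantile normalization (adjusted p = 0.023) and with water 0 h as control (adjusted p = 0.028). Of 29 LHC, PSA and PSB family members 5 were gating higher and 0 lower, beside 9.39% and 9.4% of all named genes, with a median of 0.24. Most of these members are genes of the plastid genome, of which psbT alone was called. LHCB4.1 and LHCB4.2 are counted in both lists. None were called with SA 0 h as control, beside 0.539% of all named genes, and the median there was 0.17. With water 3 h as control 3 were called without SA ZT24 replicate 2, SA ZT36 replicate 2 or water ZT36 replicate 2. Of 4 measured stomatal genes 0 were called (median 0.01), where 18.8% of all named genes were, so that this count says little. STOMAGEN, a peptide that promotes stomata, fell by 3.40 at ZT24 and fell by 2.83 at ZT36 with SA, with a gating difference of -0.57 ± 0.50 (adjusted p = 0.50) that was -1.60 (adjusted p = 0.020) with water 0 h as control, and FMA, a guard cell factor, had 0.04. Other cell types were covered thinly, with 1 vascular and 1 root marker measured, neither called, and 0 of the epidermal and flower markers.

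A smaller set of genes was called with both controls, for some of which the call with SA 0 h did not hold under other settings. It held 105 of the 136 probe sets called with SA 0 h as control, 96 of them with the same sign in both versions. Among named genes it held 56, of which 53 had the same sign. The genes named here were chosen after their values were seen, and since both versions share the SA 3 h arrays, their values are given side by side. AT1G51850 had 4.12, 3.39 and 3.75 in SA leaves at ZT24, against -0.20, -0.11 and -0.22 in water leaves, and 1.29, 1.72 and 1.81 in SA leaves at ZT36, against -0.13, -0.07 and -0.14 in water leaves. Water leaves overlapped between the times and SA leaves were higher at ZT24 without overlap. The SA effect was 3.93 at ZT24 and 1.72 at ZT36 (gating 2.21 ± 0.21, adjusted p = 4.7e-07), and with SA 0 h as control the gating difference was 1.91 (adjusted p = 0.00017). AT1G51890 had SA effects of 3.75 and 1.22 (gating 2.53 ± 0.48, adjusted p = 0.00068; 2.28 with SA 0 h as control, adjusted p = 0.026, but 1.1 and not called after quantile normalization, adjusted p = 0.25). Its call with SA 0 h was also lost without any 1 of 8 of the 12 arrays (SA 0 h replicates 1 and 2 at both times, SA ZT24 3 h replicate 1, each SA ZT36 3 h array; adjusted p 0.055 to 0.083) and with array weights (0.051). AT3G02840 had SA effects of 2.97 and 1.35 (1.75 with SA 0 h as control, adjusted p = 0.019, and 0.095 in a fit of those 12 arrays alone).

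B120, a lectin-domain receptor-like kinase, showed the same pattern at a smaller scale. It had 1.85, 0.89 and 1.27 in SA leaves at ZT24, against -0.27, -0.14 and -0.23 in water leaves, while at ZT36 SA leaves lay at 0.26, 0.30 and 0.34, against -0.13 to 0.03 in water leaves. Its gating difference was 1.21 ± 0.21 (adjusted p = 0.00034), and 1.23 (adjusted p = 0.011) with SA 0 h as control, a call lost in a fit of those 12 arrays alone (adjusted p = 0.075). ATSIK, a protein kinase, had SA effects of 0.72 and -1.38 (gating 2.1 ± 0.20, adjusted p = 4.1e-07; 1.15 with SA 0 h as control, adjusted p = 0.013). PTI1-4, a kinase related to a tomato immune kinase, had -0.42 and -1.52 (gating 1.1 ± 0.17, adjusted p = 0.00012; 0.94 with SA 0 h as control, adjusted p = 0.017), and TMT1, a sugar transporter of the vacuolar membrane, had 0.36 and -0.64 (gating 0.99 ± 0.12; 0.63 with SA 0 h as control, adjusted p = 0.019). PTI1-4 was no longer called against SA 0 h when replicate 2 of SA ZT36 3 h was left out (adjusted p = 0.051) or with the 12 arrays alone (0.055), and TMT1 when replicate 2 of SA ZT36 was left out at 0 h or at 3 h (adjusted p 0.052 to 0.061).

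On the lower side AT1G13650 kept most of its difference with either control. It had -0.05, 0.03 and -0.04 in SA leaves at ZT24, against 3.13, 3.22 and 3.27 in water leaves, and -0.56, -0.49 and -0.53 in SA leaves at ZT36, against -0.02, -0.38 and -0.13 in water leaves. The water leaves at ZT24 were high, as were the SA 0 h leaves at ZT24 with 2.69, 2.60 and 2.50. AT1G13650 had a gating difference of -2.88 ± 0.20 (adjusted p = 6.7e-09), and -2.32 (adjusted p = 2.2e-06) with SA 0 h as control. AT2G27420 had SA effects of -5.14 at ZT24 and -0.09 at ZT36 (gating -5.05 ± 0.34, adjusted p = 6.7e-09; -1.95 with SA 0 h as control, adjusted p = 0.013, but 0.055 with the 12 arrays alone and 0.095 with a trended and robust prior). AT5G44050 had SA effects of -1.89 and 1.55 (gating -3.44 ± 0.21, adjusted p = 3.2e-09; -1.45 with SA 0 h as control, adjusted p = 0.0025). DPE1, a plastid enzyme of starch breakdown, was called in opposite directions, at 1.37 ± 0.23 (adjusted p = 0.00020) with water 3 h and at -1.11 (adjusted p = 0.024) with SA 0 h as control, and the second value was 0.03 after quantile normalization and was not called without any 1 of SA ZT24 0 h replicates 1 and 2 and SA ZT36 replicates 1 and 3 at 0 h and 3 h (adjusted p 0.051 to 0.066).

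**Figure D5:**
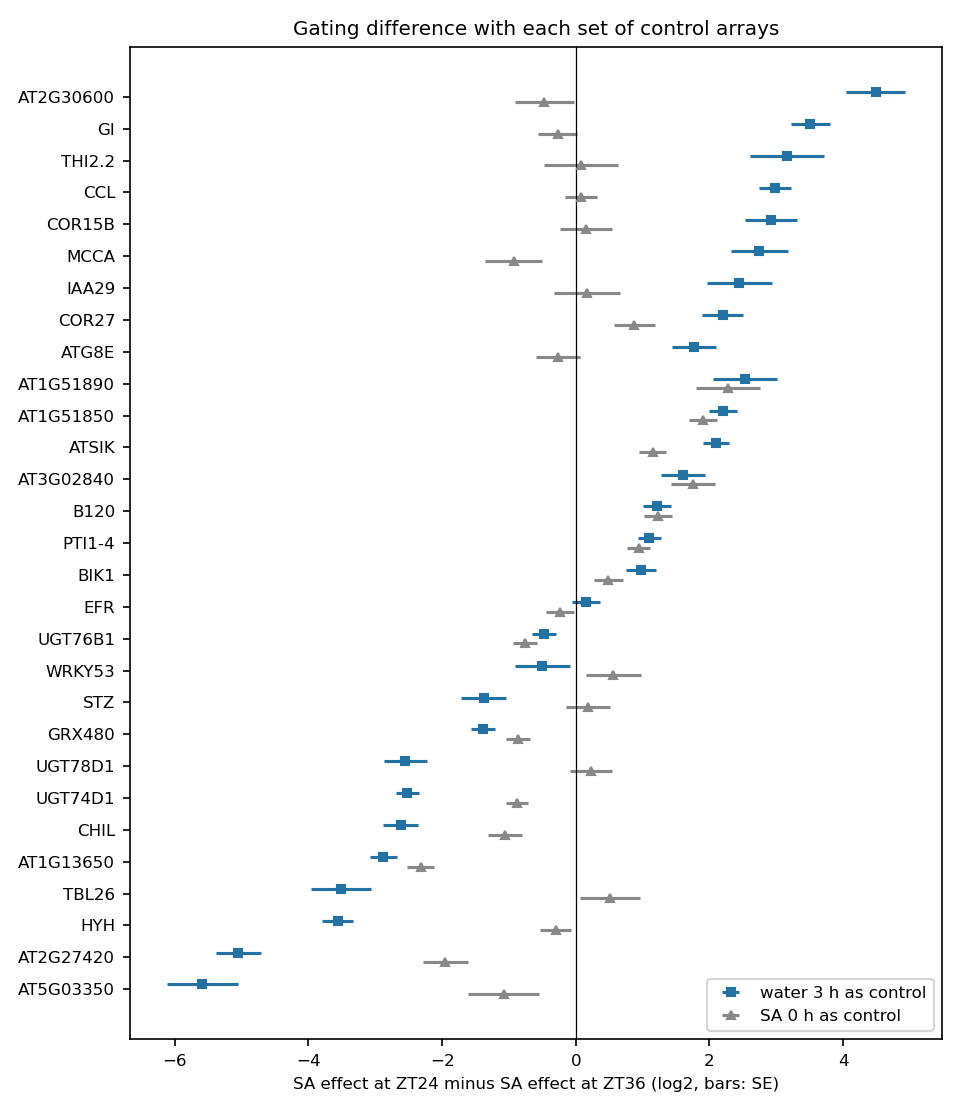
Gating difference (log2, bars are SE, 3 arrays per group) of selected genes with water 3 h (blue squares) and with SA 0 h (grey triangles) as control. The triangles of GI, HYH, TBL26 and UGT78D1 lie near 0, at -0.27, -0.30, 0.51 and 0.23, while those of AT1G51850 and B120 lie at 1.91 and 1.23, close to the squares.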

How the data were processed

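Biotin-labelled leaf RNA was measured on 24 Affymetrix arrays, 12 of which form the contrast. The deposited values are log2 expression values made with RMA, of no stated version, per the submitters' processing notes, and the deposited table had been centred for each probe set on its median over the arrays (largest absolute median 5e-07), which leaves differences unchanged. Signal over background is therefore unknown, and the number of arrays limits precision. Array medians lay between -0.035 and 0.033, r within groups of the contrast between 0.75 and 0.94, and no arrays were identical. The 64 control probe sets were left out.

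A mean per group was fitted to all 24 arrays with limma 3.58.1 in R 4.3.3 (16 residual and 4.03 prior degrees of freedom), with 2-sided tests and Benjamini-Hochberg adjustment over 22746 probe sets, at 0.05. The code was tested on simulated data. Figures were made in Python 3.11.15 by matplotlib 3.10.9.

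Of the tested probe sets 13513 had 1 gene symbol, 503 several and 8730 are unnamed here. Symbols were updated through RefSeq gene IDs (13436 matched; TAIR10.1 assembly), with 1 probe set kept for each of 13355 genes. Related genes may share signal. Of 186 entries in hand-written lists 38 had a named probe set, and families with at least 5 measured members were described, chiefly those with several calls.

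The contrast, the gene lists and the named genes were chosen with earlier results of these data known. Genes were named as the largest differences in each class of SA effects and up to 4 called members per list, from which the text gives a selection. The larger named genes with a symbol other than a locus, and those called with both controls, were added after their values were seen. Title numbers form 3 runs of 8 arrays. Deviations of same-run arrays had r between -0.12 and 0.30 (median 0.03), and those of different-run arrays between -0.29 and 0.19 (median -0.025). The numbers were not taken as pairs in the main fit, and an effect of runs was not tested. Alternatives were a replicate block, a fit of the 12 arrays alone, quantile normalization, a filter on SD in place of mean level, a trended prior, array weights, 0 h subtraction, SA 0 h and water 0 h controls, a fold threshold and leaving out each array; the water 0 h control was added after the data were seen. Promoter sequences were not analysed here.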

Additional observations from a re-analysis of the deposited data

Results flagged for a closer look

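The SA effect differed between ZT24 and ZT36 by the test of the difference itself at 4704 probe sets with water 3 h as control. The named genes with the largest such difference among those whose effects were called in opposite directions are given here. AT2G30600 (gating 4.49 ± 0.44) had SA effects of 1.75 at ZT24 and -2.74 at ZT36, AT4G27450 (3.76 ± 0.56) had 1.36 and -2.40, AT3G10020 (3.64 ± 0.25) had 2.68 and -0.96, and AT5G43440 (3.56 ± 0.26) had 2.37 and -1.18. Against SA 0 h arrays they had -0.47, -0.66, 0.08 and 0.39 in the order given, none called. In the other direction AT3G15310 (-4.65 ± 0.37), annotated as a pseudogene in RefSeq, had -3.13 and 1.52, AT5G44050 (-3.44 ± 0.21) had -1.89 and 1.55, AT1G06000 (-3.31 ± 0.46) had -1.33 and 1.98, and AT5G12110 (-3.15 ± 0.25) had -1.35 and 1.80. With SA 0 h as control these were -0.05, -1.45, -1.33 and -0.77, of which AT5G44050 alone was called.

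Differences were also called between arrays outside the contrast. SA 0 h differed from water 0 h, groups labelled as taken at the time of treatment, at 3688 probe sets at ZT24 (16.2%) and 6603 at ZT36 (29%; limma adjusted p of 0.05). Leaving out 1 array gave 2689 to 3235 at ZT24 and 5225 to 6639 at ZT36. As said above, whether the water 3 h and SA 0 h labels belong to each other's arrays was not tested. These counts are therefore not read as an effect of SA at 0 h.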

How the results depend on the processing

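The 4704 gating calls came to 4429 to 4941 under quantile normalization, the 12 arrays alone, a trended prior, array weights, the SD filter and the replicate block (4941), and to 6586 with water 0 h as control. Leaving out 1 array gave 3850 to 4792 (higher 1924 to 2409, lower 1926 to 2383). Counts moved with 0 h groups subtracted (29, of which 16 higher and 13 lower), a log2 difference of at least 1 (1394; 731 and 663) and 1 probe set per named gene (2425; 1222 and 1203), the last 2 by construction. Under those 2 settings the SA effect was called at 2314 and 4613 at ZT24 and at 2520 and 4895 at ZT36, and the time difference at 978 and 3346 in SA 3 h leaves and at 1840 and 4542 in water 3 h leaves. The time difference in SA leaves came to 3443 after quantile normalization. Without 1 array these ranged over 7549 to 8501 (SA at ZT24), 8188 to 8553 (SA at ZT36), 5031 to 5990 (time, SA) and 7144 to 7939 (time, water). The 136 calls with SA 0 h as control came to 89 with 12 arrays alone, 1017 after quantile normalization, 82 with the log2 threshold, 69 with 1 probe set per gene, and 52 to 199 without 1 array. Where no value above shows it, the cause was not tested.

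The replicate block changed no call among the 68 called genes of the text, and the numbers share only a run. With 0 h groups subtracted 3 of the 68 stayed called (AT1G51850, AT5G44050 and AT1G13650), 37 lost the call and 28 turned sign. Genes that turned sign there, whether called or not, had RCA 0.17, GH3.3 -0.41, ATG8F -0.49, AKINBETA1 -1.21, EFR -0.21, UGT78D2 0.29, DPE1 -0.75, AT5G43440 -0.13, GR 0.54, Fes1B -0.28, EXLA1 -1.61, IVD -1.27, MCCB -0.92, AT4G33980 -0.12, AT4G27450 -2.56, WES1 -0.44, APG8A -0.19, STOMAGEN 1.00, TBL26 0.69, scpl46 0.01, UGT85A5 -0.53, AT3G15310 0.15, GR1 0.12, CCL -0.39, AT3G15450 -2.55, AT3G10020 -0.69, GSTU20 0.14, UGT78D1 0.38, MCCA -1.71, GI -0.19, ATG8E -1.04, AT5G52660 0.05 and AT2G30600 -1.29. With water 0 h as control WRKY53 was 0.25, STZ 0.61, FMA -0.13 and UGT74F1 0.02. Leaving out 1 array gave EFR -0.07 (SA ZT24 replicate 1) to 0.34, and FMA -0.02 (the same array) and -0.01 (water ZT36 replicate 1). DPE1 with SA 0 h as control was 0.03 after quantile normalization.

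The calls of WES1, WRKY47 and AT5G52660 were lost in the fit of 12 arrays, and that of WRKY47 after quantile normalization and with water 0 h as control too. The call of WES1 was also lost with array weights, where UGT76B1 was called at -0.52. Calls with SA 0 h as control that were lost under some alternative stand beside the genes above. Those of AT1G51850, AT1G13650, AT5G44050 and ATSIK held under each alternative run on that version, of which 0 h subtraction was not one. With 0 h groups subtracted from the water 3 h version, ATSIK was at 1.06 and not called (limma adjusted p = 0.16). With 3 arrays per group and no known signal over background, a gene not called may still differ.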
